A study of Mus musculus with 12 samples.

Results

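Fhit, Wwox, Dlgap2, Csmd1, Macrod2, Lrp1b, Immp2l and Ctnna3 are 8 very long mouse genes, most of which lie at common fragile sites. They were taken from a list of names that was chosen with earlier results of these data known. For each gene, the regions of FLAG-tagged Zscan4 with a midpoint in the gene body were read from the deposited region list. These are 8 of 21775 protein-coding genes used, and 14 of the 4973 listed regions (0.282%) fell in them. The cells were J1 mouse embryonic stem cells, with the genotype Zscan4 overexpression and the strain label 12910la. They had been transfected with 1000 ng of a pCMV plasmid carrying the Zscan4c coding sequence with a FLAG tag, and were selected from 24 h after transfection in 500 ug/ml G418 for 10 days. Single clones were then picked, and the labels do not say whether 1 clone or several were used. Among 12 labelled samples, 1 was the anti-FLAG immunoprecipitation with 1 matched input. The other 10 were immunoprecipitations of H3K27ac, H3K14ac or H3K4me1 and their inputs from wild-type and overexpressing cells, and were not analysed here. No group had a replicate. The list holds no expression values, so the embryonic stem cell label could not be checked against marker genes.

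Common fragile sites are stretches of chromosomes that show gaps and breaks when DNA replication is slowed. Many of them coincide with very long genes, where few replication origins fire and transcription can still be under way when replication arrives. Zscan4 is a SCAN-domain zinc finger protein of the 2-cell embryo and of a transient state of embryonic stem cells, known for a role in telomere maintenance and genome stability, and its zinc fingers are known to recognise the sequence TGCACAC. Whether the tagged protein was listed more or less often inside these genes than elsewhere on their chromosomes is the question addressed here.

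The regions were concentrated in a pair of the genes. Fhit, which encodes a diadenosine triphosphate hydrolase and tumour suppressor, and Dlgap2, which encodes a scaffold protein of the postsynaptic density, held 6 regions each. Wwox, a WW-domain oxidoreductase and tumour suppressor, and Lrp1b, an endocytic receptor of the low-density lipoprotein receptor family, held 1 each. No region was listed in Csmd1, a membrane protein with complement control domains, Macrod2, which removes ADP-ribose from proteins, Immp2l, a subunit of the mitochondrial inner membrane peptidase, or Ctnna3, the alpha-T-catenin of cell junctions. No gene of the 8 was called higher or lower than its chromosome after adjustment (exact binomial test). Only signal that passed the submitters' peak calling is listed, which leaves weaker binding in an empty gene possible, and the depth of sequencing is unknown.

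**Figure D1:**
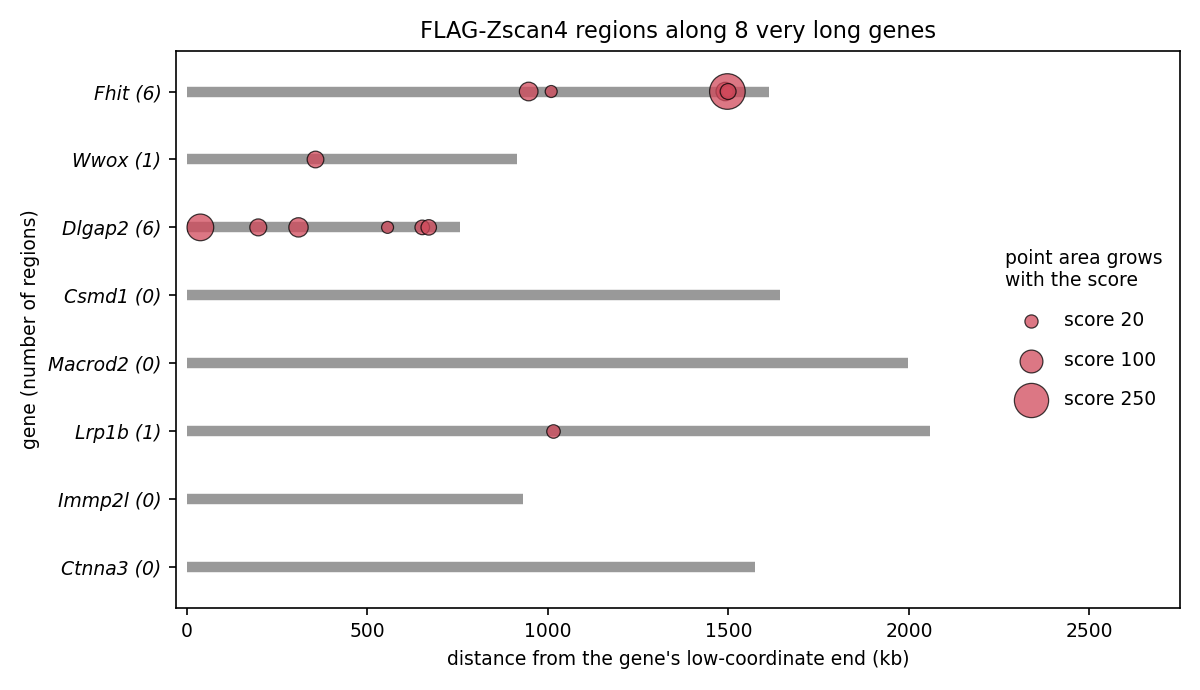
Position of each listed region (points) along the 8 gene bodies (grey bars), in kb from the end of the gene with the lower coordinate, with the point area growing with the authors' peak score and the number of regions in brackets. The 6 regions of Fhit lie in the part beyond 947 kb and 4 of them overlap at this scale, the 6 of Dlgap2 run from 37.2 to 670 kb, and 4 genes are empty.

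Among the genes with regions, Fhit alone had start site sequences available. Its pair of annotated starts is shown because it places the regions of Fhit relative to transcription. Both sequences are the 250 bases upstream of a start on the minus strand, from RefSeq (GRCm38.p6), with TGCACAC or its reverse complement GTGTGCA in capitals.
Fhit outer start, chr14:11162036-11162285: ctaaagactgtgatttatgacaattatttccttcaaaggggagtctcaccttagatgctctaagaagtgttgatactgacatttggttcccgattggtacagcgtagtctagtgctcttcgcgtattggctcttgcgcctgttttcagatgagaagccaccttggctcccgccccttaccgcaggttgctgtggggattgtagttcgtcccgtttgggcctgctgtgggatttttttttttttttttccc
Fhit inner start, chr14:10453459-10453708: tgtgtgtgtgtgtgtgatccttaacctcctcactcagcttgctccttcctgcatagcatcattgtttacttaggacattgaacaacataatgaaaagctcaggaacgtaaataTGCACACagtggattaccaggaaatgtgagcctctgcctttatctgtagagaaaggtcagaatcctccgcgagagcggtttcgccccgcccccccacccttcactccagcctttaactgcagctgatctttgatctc
The inner start has 1 copy of TGCACAC, which begins 137 bases upstream of the start, in a window that opens with a run of TG repeats. The outer start has no copy. The sequence table held 8 start sites of 4 of the genes (Fhit, Macrod2, Immp2l and Ctnna3), and the inner Fhit start was the only one of the 8 with a match. Of 32851 promoters in the table, 1206 (3.67%) had a match in their 250 upstream bases on either strand. No start was near a listed region: the distance from a start to the nearest midpoint was 43.2 kb at the inner Fhit start, 113 kb at the outer one and up to 2556 kb at Macrod2. A match is a description of the letters only, and the sequence under the regions themselves was not used here.

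Fhit spans 1612 kb of chromosome 14 (9550092 to 11162061, mm10) and is transcribed from the higher to the lower coordinate. Its 6 regions were not spread evenly. The part from the lower-coordinate end of the gene up to the first region, 947 kb or 58.7% of the gene, had no region. The first, at 10496443 to 10496959, was 517 bp wide with a score of 60, and the second, 62.3 kb further on, was 238 bp wide with a score of 13. Both lie upstream of the inner start and inside the transcript of the outer one, at 43.2 and 106 kb from the inner start. After a further stretch of 482 kb came a group of 4 regions within 8.86 kb, from 11040552 to 11049408. This group lies 113 to 121 kb downstream of the outer start. The nearest annotated genes nested in Fhit were the small nucleolar RNA gene Gm22053, at 17.8 kb from the first region, and the long non-coding RNA gene Fhitos, at 262 kb or more from the group. Exons and introns were not analysed here.

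The group of 4 in Fhit held the region of highest score among all 14. That region, at 11047217 to 11047795, was 579 bp wide with a score of 272, a score reached or passed by 2.41% of all listed regions. Its neighbours were a region of 421 bp and score 11, which ended 284 bp before it, and a region of 770 bp and score 38, which began 843 bp after it. The outermost of the group was 306 bp wide with a score of 58 and lay 5654 bp from the next. On the nuclear chromosomes, chains of 4 or more regions with neighbouring midpoints within 10 kb numbered 18, of which 4 lay within a protein-coding gene. Among the 108 protein-coding genes at least as long as Dlgap2, the shortest of the 8, the one in Fhit was the only such chain. The 8 genes cover 11.5 Mb and the other 100 cover 109 Mb, out of 2661 Mb of nuclear chromosomes. Whether 1 chain is more than this share of the sequence would hold was not tested.

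**Figure D2:**
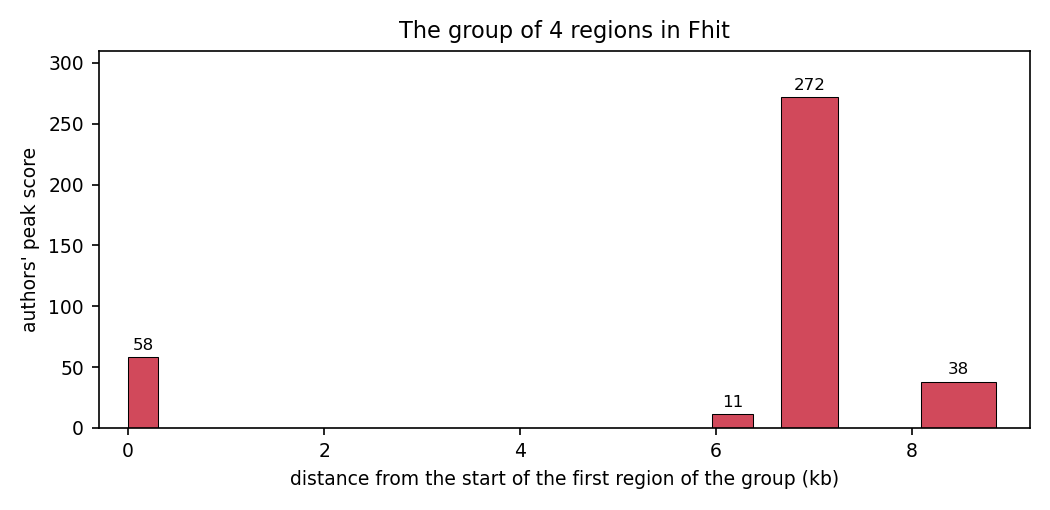
The group of 4 regions in Fhit, drawn to scale along 8.86 kb, with the authors' peak score as the bar height and the region width as the bar width. The region of score 272 stands between neighbours of scores 11 and 38, and the region of score 58 is set apart by 5654 bp.

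Dlgap2 spans 758 kb of chromosome 8 (14095776 to 14853426) and had its 6 regions spread along the gene, with midpoints at 4.91%, 26.1%, 40.8%, 73.4%, 86.0% and 88.4% of its length. Distances between neighbouring midpoints ran from 18.0 to 247 kb, and no pair lay within 10 kb. The highest score was 144, at 14132854 to 14133116, a score reached or passed by 6.64% of all regions, and the next was 66, at 14404584 to 14404888. The other scores were 46, 35, 29 and 13. All 6 regions were narrow, at 220 to 311 bp. The last pair, at 14747422 to 14747669 and 14765436 to 14765655, lies inside the long non-coding RNA gene C030037F17Rik, which is nested in Dlgap2, and the region of score 144 lies 3.17 kb from the pseudogene Gm3160. The region of score 46 lies 20.1 kb from the small nucleolar RNA gene Gm26184. Region numbers follow genome order, and 1 number between the Dlgap2 regions of scores 46 and 66 has no region in the list used here, so the count of 6 holds for this list only.

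In Wwox (chromosome 8, 114439635 to 115352712, 913 kb) the single region, at 114794617 to 114794859, was 243 bp wide with a score of 44. It lay at 38.9% of the gene's length, counted from the lower coordinate. In Lrp1b (chromosome 2, 40595290 to 42653598), at 2058 kb the longest of the 8, the single region was near the middle, at 49.3% of the length (41608650 to 41609532). It was the widest of the 14 at 883 bp, with a score of 22, and 6.92% of all regions were as wide or wider. The nearest nested genes, the long non-coding RNA genes Gm16118 in Wwox and Gm30138 in Lrp1b, lay 86.6 and 270 kb from these regions. Neither region had another within 100 kb, inside or outside the gene.

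The 4 genes without a region lay in long empty stretches. Macrod2 (chromosome 2, 140395303 to 142392966, 1998 kb) was in a stretch of 6457 kb between neighbouring regions, Immp2l (chromosome 12, 41024061 to 41955588, 932 kb) in one of 5044 kb, and Ctnna3 (chromosome 10, 63430098 to 65003667, 1574 kb) in one of 4455 kb. On these 3 chromosomes the median distance between neighbouring regions was 250 to 293 kb. A gene without a region lies in a stretch at least as long as itself by construction. Long stretches also lay beside the genes with 1 region. The nearest region outside Lrp1b on its higher-coordinate side was 2991 kb away, and that outside Wwox on its lower-coordinate side 2840 kb away. Csmd1 (chromosome 8, 15892538 to 17535385, 1643 kb) was in a stretch of 2291 kb, where the median distance on its chromosome was 89.0 kb. It had more regions close by, with 10 within 1 Mb of its ends, against 1 for Macrod2, 1 for Immp2l and 0 for Ctnna3. It begins 1039 kb beyond Dlgap2, 7 regions lay between the 2 genes, the last of them 50.7 kb from Csmd1, and a further 3 regions lay in the first 1 Mb beyond it. The densest window of the chromosome, at 20 to 21 Mb with 76 regions, starts 2465 kb from the end of Csmd1.

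Rates were compared with the chromosome outside each gene, because chromosomes differ in their rate. Fhit had 0.372 regions per 100 kb (95% exact Poisson interval 0.137 to 0.810) against 0.206 on the rest of chromosome 14. That is 6 regions against 3.33 expected, a ratio of 1.80 (95% interval 0.656 to 3.98), which did not pass the exact binomial test (p = 0.157, adjusted p = 1). Dlgap2 had the highest rate, 0.792 per 100 kb (0.291 to 1.72) against 0.363 on the rest of chromosome 8. Its 6 regions against 2.75 expected gave a ratio of 2.18 (0.797 to 4.79), which did not pass either (exact binomial p = 0.0618, adjusted p = 1). The intervals of both genes reach from below to well above the rate of the chromosome. Chromosome 8 has a high rate, and against all autosomes pooled the 6 regions of Dlgap2 stood against 1.5 expected (ratio 4.001, unadjusted exact binomial p = 0.00446, adjusted p = 0.451). With only regions scored at or above the upper quartile, Fhit had 3 against 0.952 (ratio 3.15, exact binomial p = 0.0753, adjusted p = 1). Those of scores 272 and 58 among them lie in the group of 4. At or above the median score, Fhit had 4 against 1.905 (ratio 2.10, exact binomial p = 0.130). With regions within 1 kb merged, it had 4 against 3.31 (ratio 1.21, exact binomial p = 0.579).

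The other 6 genes all had fewer regions than expected, without an adjusted call. Csmd1 had the smallest p of the 4 empty genes, with 0 regions against 6.08 expected, a ratio of at most 0.609 (95% interval) and an unadjusted exact binomial p of 0.00578 (adjusted p = 0.63). In Macrod2, 0 were listed against 3.54 expected (exact binomial p = 0.0556, adjusted p = 1), with a rate of at most 0.185 per 100 kb against 0.177 on its chromosome. In Ctnna3, 0 were listed against 2.80 (p = 0.123) and in Immp2l 0 against 1.605 (p = 0.416), both with an adjusted exact binomial p of 1. Lrp1b had 1 against 3.63 (ratio 0.275, interval 0.00695 to 1.55, p = 0.279) and Wwox 1 against 3.35 (ratio 0.298, interval 0.00754 to 1.67, p = 0.274), again with an adjusted exact binomial p of 1. Against their own chromosomes, only Csmd1 of the 4 empty genes expected enough regions for a count of 0 to reach an unadjusted p under 0.05. Against all autosomes pooled, Csmd1 had 0 against 3.26 expected (unadjusted exact binomial p = 0.0865) and Wwox a ratio of 0.553. Macrod2 then had 0 against 3.96 (unadjusted exact binomial p = 0.0392). With dense 1 Mb windows left out of its chromosome, Csmd1 had 0 against 4.59 (unadjusted exact binomial p = 0.0275). None of these was called after adjustment.

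**Figure D3:**
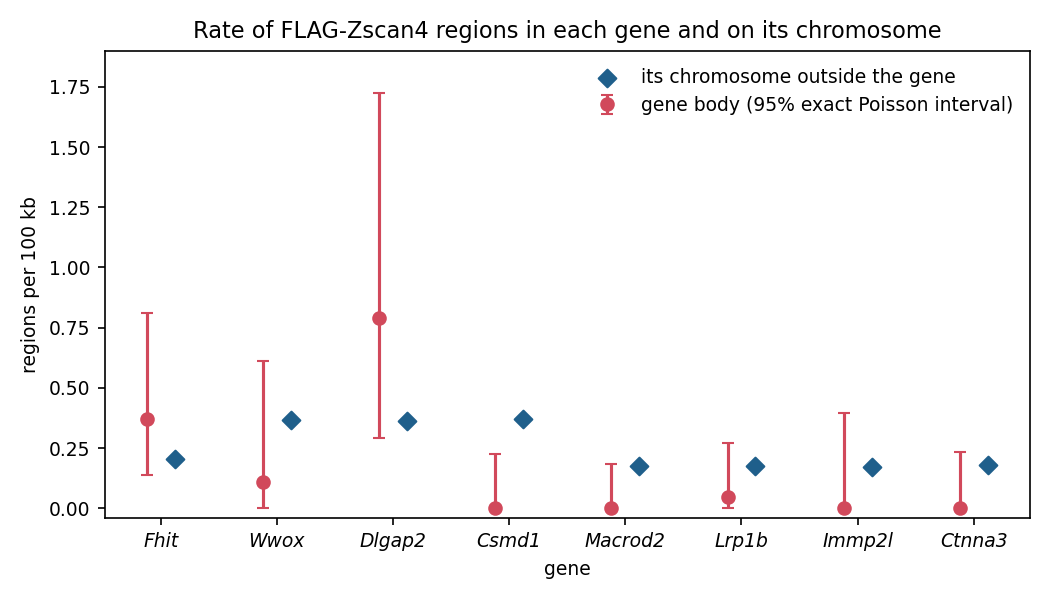
Regions per 100 kb in each gene body (circles, with 95% exact Poisson intervals) beside the rate of its own chromosome outside the gene (diamonds). The interval of Csmd1 ends at 0.225, below the 0.370 of its chromosome, and the other 7 intervals hold the rate of their chromosome.

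The test was run on all 2426 protein-coding genes of 100 kb or more, with Benjamini-Hochberg adjustment over them. Of these genes 10 (0.412%) were called higher than their chromosome and 0 (0%) lower. None of the 8 was among the 10. At an unadjusted p under 0.05, 87 genes (3.59%) were higher and 3 (0.124%) lower, and Csmd1 was 1 of those 3, all of which were among the 108 very long genes (2.78% of them). Shorter genes expected too few regions for a count of 0 to reach that p. Csmd1 expected the most of all 2426 genes and was empty with an adjusted exact binomial p of 0.63, so that no gene could be called lower here. At least 1 region was present in 4 of the 8 genes, against 30.0% of the 2426 genes, most of which are much shorter, and in 51.9% of the 108 very long genes. The median ratio of listed to expected regions was 0.138 over the 8 genes. Over the 2426 it was 0 because most of them had no region, so the medians do not compare rates. Regions of this list are not independent of each other, since many have close neighbours, and the exact binomial p-values can therefore be too small.

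Among the 108 very long genes, of which Dlgap2 is the shortest, Fhit and Dlgap2 had the highest numbers of regions. Together the 8 genes had 14 regions over 11.5 Mb against 27.1 expected, a ratio of 0.517 (95% exact Poisson interval 0.283 to 0.867). This pools unlike genes: the ratio was 1.975 over Fhit and Dlgap2, picked by their counts, and 0.0952 over the other 6. The interval takes regions as independent and the genes as alike, so it can be too narrow. The other 100 protein-coding genes of at least the length of Dlgap2 had 65 regions over 109 Mb against 221 expected at the rates of their chromosomes, a ratio of 0.294 (0.227 to 0.374). Counted gene by gene, 48 of these 100 had no region, 40 had 1, 9 had 2 and 3 had 3. These counts add up to 67, because 3 overlapping genes on chromosome 18 hold the same region. The 3 genes with 3 regions were Etl4, Kcnip4, a potassium channel interacting protein gene, and Il1rapl2, an interleukin-1 receptor accessory protein-like gene. Over all protein-coding genes of 100 kb or more the ratio was 0.832 (0.782 to 0.885), and over protein-coding genes of every length it was 1.07 (1.02 to 1.11).

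Each of the 108 very long genes was then set against the pooled ratio of the others, a comparison chosen after the counts were known. Dlgap2, with 6 regions against 0.811 expected on this scale, was 7.40 times that number (exact binomial p = 0.000206, adjusted p = 0.0222 over 108 genes). Fhit, with 6 against 0.984, was 6.10 times that number (exact binomial p = 0.000583, adjusted p = 0.0315). These 2 (1.85% of the 108) were called higher and 0 (0%) lower, with 6 higher (5.56%) and 0 lower at an unadjusted p under 0.05. The call for Fhit rested on its group of 4: with regions within 10 kb merged into 1, Fhit had 3 against 0.987 (exact binomial p = 0.0791, adjusted p = 1), while Dlgap2 kept 6 against 0.67 (exact binomial adjusted p = 0.00803). Dlgap2 was then the 1 gene (0.926%) called, with 5 (4.63%) higher at an unadjusted p under 0.05. Since the pair was picked out by its counts, these p-values are not independent evidence. Dlgap2 is also the shortest of the 108, so every gene in its reference is longer. The ratio was 0.832 over genes of 100 kb or more against 0.294 over the other very long genes, so this reference can be too low for Dlgap2. The tests took the pooled ratio as known without error, which can make the p-values too small.

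**Figure D4:**
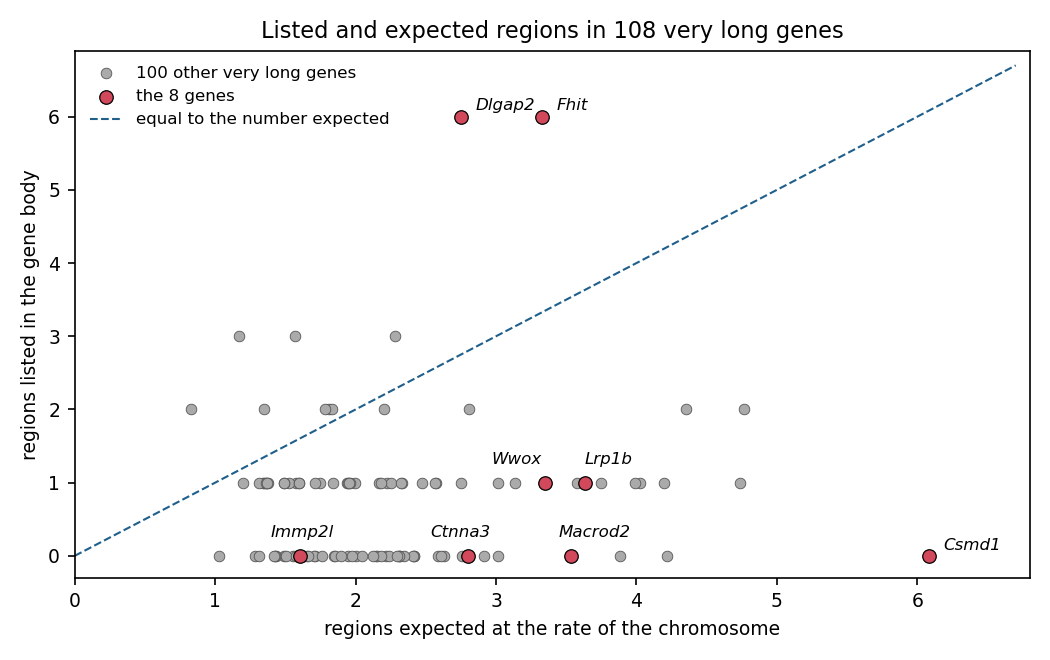
Number of listed regions in the body of each of 108 very long protein-coding genes (vertical axis) against the number expected at the rate of its chromosome (horizontal axis), with the 8 genes in red and the line of equal numbers dashed. Dlgap2 and Fhit stand at 6, the next genes at 3, and most of the 108 lie below the line.

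The surroundings of each gene gave another reference. Against the 10 Mb on either side in place of the whole chromosome, Dlgap2 had 6 regions against 6.02 (ratio 0.996) and Fhit 6 against 8.29 (ratio 0.724), so that both were no longer above their reference. Csmd1 then had 0 against 14.8 and was the 1 gene of the 2426 (0.0412%) called lower (exact binomial adjusted p = 0.00114), with 5 genes (0.206%) called higher. These surroundings hold the dense window at 20 to 21 Mb of chromosome 8 and others at the start of chromosome 14. Without windows of 1 Mb that held 10 or more regions, the same flanks gave 2.54 expected for Dlgap2 (ratio 2.36), 4.52 for Fhit (ratio 1.33) and 7.54 for Csmd1. The call for Csmd1 was then lost (exact binomial p = 0.00188, adjusted p = 0.254).

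The median width and score of the 14 regions lay between the lower and upper quartiles of the list. Over the 14 regions the median width was 305.5 bp (220 to 883 bp), against 310 bp over the whole list, and 4 of the 14 (28.6%) were 500 bp or wider, against 23.3% of regions on the nuclear chromosomes. Of those 4, 3 were in Fhit and 1 was that of Lrp1b. The median width in Fhit was 469 bp (238 to 770 bp) and in Dlgap2 258.5 bp (220 to 311 bp), with ranges that overlap. The median score of the 14 was 41 (11 to 272) against 33 over the list, and 2 of them (14.3%), the highest of Fhit and of Dlgap2, had a score of 100 or more, against 10.6% on the nuclear chromosomes and 18.5% in the other very long genes. In the other very long genes the median width was 374 bp and the median score 40, with 38.5% of 65 regions at 500 bp or wider. Of the 14 regions, 4 had another within 10 kb, all in the group of Fhit, against 0 of the 65 in other very long genes and 14.6% of the 4927 on nuclear chromosomes. Differences in width and score were not tested.

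**Figure D5:**
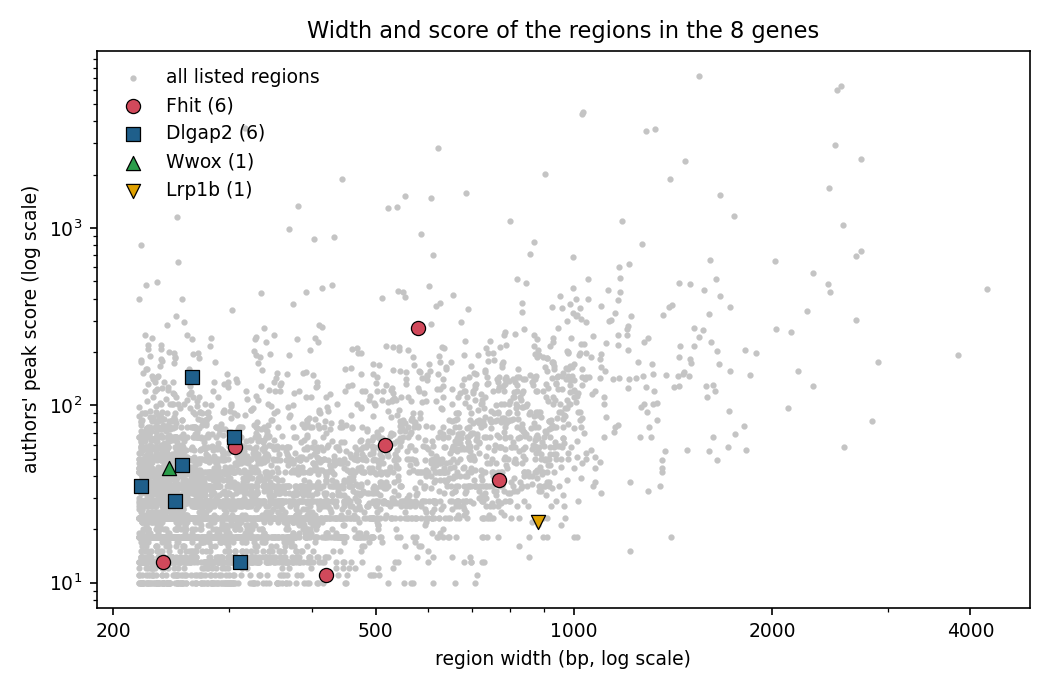
Width (horizontal, log scale, bp) and authors' peak score (vertical, log scale) of all 4973 listed regions in grey, with the regions of Fhit, Dlgap2, Wwox and Lrp1b as coloured symbols. The Dlgap2 regions stay at 220 to 311 bp, the Fhit regions reach 770 bp and a score of 272, and the region of Lrp1b is the widest at 883 bp.

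Other genes known from common fragile sites were counted as a list. The 17 such genes counted, all of 100 kb or more, held 9 regions against 35.0 expected, a ratio of 0.257 (95% exact Poisson interval 0.117 to 0.488), and 8 of the 17 (47.1%) had a region. The 100 other very long genes, some of which are also on this list, stood at a ratio of 0.294 and a share of 52% with a region. None was called higher or lower (exact binomial test), and none had an unadjusted p under 0.05. Rora, a nuclear receptor gene, had 2 regions (scores 42 and 28). Dlg2, a postsynaptic scaffold gene (score 165), and Lsamp, a limbic adhesion molecule gene (score 140), had 1 each, as had Dmd, the dystrophin gene (42), Pard3b (38), Thsd7a (27), Cntnap2 (18) and Dab1 (15). Il1rapl1, Nbea, Auts2, Dpyd, Magi2, Naaladl2, Dcc, Esr1 and Pde10a had none. None of the 17 had the 6 regions of Fhit or Dlgap2. Most but not all of the 8 lie at such sites, and a link of the counts to fragility was not tested.

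Relatives of the 8 genes were counted for Dlgap2, Csmd1, Lrp1b, Ctnna3, Macrod2 and Immp2l. Of 13 paralogues, 4 had a region, with 5 regions in all against 8.14 expected (ratio 0.614, 95% exact Poisson interval 0.199 to 1.43, which holds equal numbers). All 4 are among the 8 paralogues of 100 kb or more (50%). The share was 30.0% of all genes of 100 kb or more and 51.9% of the 108 very long genes. These 8 paralogues span 136 to 1212 kb, and the shares were not matched for length. Dlgap1, at 852 kb longer than Dlgap2, had 0 against 1.57 expected, and Dlgap4 had 1 (score 14). Csmd2 had 1 region (score 61), where Csmd1 and Csmd3 had none. Ctnna2, an alpha-catenin gene of neurons, had 2 (scores 67 and 18) and Ctnna1 had 1 (score 13), where Ctnna3 had none. The other paralogues (Dlgap3, Lrp1, Lrp2, Lrp4, Ctnnal1, Macrod1 and Immp1l) had none. Of the 8 paralogues of 100 kb or more, 0 were called higher or lower by the exact binomial test and 0 had an unadjusted p under 0.05.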

How the data were processed

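The data were 1 deposited list of regions from the anti-FLAG immunoprecipitation (5 ng of DNA, fragments of about 250 bp, per the labels' protocols). Cutadapt, Bowtie2, MACS2, deepTools and the build mm10 are named, per the submitters' processing notes. No label gives their versions, the threshold or whether the input entered peak calling. The score was deposited by the authors as a whole number per region, on a scale not given, and served only to describe, rank and filter. Other deposited values were start and end in bp, from the authors' file, counted from 0 there and from 1 here. Peaks came from 1 sample. Regions are numbered up to 5005, and 32 numbers are missing.

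Genes came from RefSeq (GRCm38.p6, the assembly of mm10), without those starting below 3 Mb on autosomes and the X chromosome, and exons were not in that table. A region belonged to a gene by its midpoint. Each protein-coding gene of 100 kb or more was compared with the rest of its chromosome (first to last annotated or listed position) by a two-sided exact binomial test, with Benjamini-Hochberg adjustment over 2426 genes and a threshold of 0.05. The script was tested on simulated data with independent placements, which does not cover the clustering of real regions. Intervals are exact, at 95%, and cover counting error only. Genes were named by a rule: the 8 genes, every list gene with a region, the very long genes with most regions and the nested gene nearest each region. The names of list genes without a region were added. Some genes of the list of other fragile site genes are not reported here and were left out of its counts, for reasons unrelated to their values. The 8 genes and the lists were chosen with earlier results of these data known. Python 3.11.15, SciPy 1.17.1 and pandas 2.3.3 were used.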

Additional observations from a re-analysis of the deposited data

How the results depend on the processing

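With regions of a score at or above the median the 8 genes held 9 regions, and at or above the upper quartile 5, and 5 and 3 genes of the 2426 were called. The number called was 6 against the 10 Mb on either side, 0 among the genes of 500 kb or more, and, in alternatives chosen after seeing the data, 1 with regions merged within 10 kb. Among the 108 very long genes set against each other it was 2, and 1 with such merging. Of the 8 genes, 1 (Csmd1) was called against the 10 Mb on either side, 2 (Dlgap2 and Fhit) against the other very long genes, and 1 (Dlgap2, ratio 8.96) with merging as well. The ratio over the 8 genes lay between 0.347 and 0.727 against chromosomes or flanks, and was 1.64 against the other very long genes and 1.39 with merging. Direction turned for Dlgap2 (0.996) and Fhit (0.724) against the flanks, for Fhit merged within 10 kb (0.998), and for Wwox merged and set against the other very long genes (1.13, 1 region against 0.882). Within 100 kb, 10 of the 14 regions (71.4%) had a neighbour, against 47.6% on the nuclear chromosomes and 13.9% in the other very long genes. All 10 were in Fhit (6) and Dlgap2 (4), so the share describes these genes and not the 8 as a set. Median width and score stayed within their intervals (243 to 579 bp, 13 to 66) in every alternative run. Those alternatives reused the 14 regions, a subset of them or their merged forms, so they are a weak check. The median score was not rerun with a score filter. No paired analysis was possible because no group has a replicate.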
